A study of Homo sapiens with 24 samples.

Results

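RNA that came down with the Argonaute protein AGO2 was compared with the total RNA of the same kind of cells after the microRNA miR-203 had been supplied. The cells were LNCaP, an androgen-responsive human prostate cancer line. Members were chosen by their titles, which name the AGO2-bound or the total RNA and the supplied microRNA. They are 6 of the 24 arrays of the series, 3 of AGO2-bound RNA and 3 of total RNA, and both groups come from LNCaP cells nucleofected with 2.5 µg of plasmid for miR-203. The other 18 arrays hold the same pair of RNA kinds, 3 arrays each, after 2.5 µg of plasmid for miR-130a, for miR-205 or for a scramble control. The immunoprecipitation used an antibody against AGO2, and RNA bound by a control antibody was not analysed here. Each array, an Affymetrix GeneChip with 22277 probe sets, received 2 µg of RNA. Values are deposited log2 signals, so a difference of 1 is a 2-fold change.

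Argonaute proteins hold a microRNA and present its seed, the bases 2 to 8 from its 5′ end, to the messenger RNAs of the cell. A transcript that pairs with the seed can be held in the complex, kept from translation and shortened in its poly(A) tail by the recruited deadenylases. Cells carry many microRNAs of their own, such as the let-7 and miR-17 families, so RNA bound to AGO2 holds targets of those as well as of a supplied microRNA. miR-203 is known from skin, where it limits the division of stratifying epithelial cells, and it is described as lost in prostate and other carcinomas. A comparison of bound with total RNA within one transfection asks which transcripts sit in the complex out of proportion to their amount in the cell.

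The mature sequences are shown because the seed is what sets the supplied microRNAs apart. They are from RefSeq (GRCh38.p14), with the seed in capitals.
miR-203a-3p: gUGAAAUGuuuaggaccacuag
miR-205-5p: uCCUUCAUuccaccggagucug
miR-203a-3p is encoded at chr14:104117469-104117490 and miR-205-5p at chr1:209432166-209432187, both on the plus strand. A transcript pairs with the whole seed of miR-203a-3p through the letters CAUUUCA. The seeds differ, so the arrays after miR-205 are a comparison with another supplied microRNA rather than with a relative of miR-203. Sites in transcripts were not searched here.

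The 6 arrays share a floor, the lowest log2 value of 2.35, with between 39.9% and 41.0% of probe sets within 0.05 of it. Deposited values of the 3 AGO2 arrays correlated at 0.985 to 0.986 with each other over genes, the 3 total arrays at 0.989 to 0.994, and AGO2 with total arrays at 0.817 to 0.841. The floor differed between 3 sets of arrays, those of miR-203, those of miR-130a and those of miR-205 with scramble, so levels are tested here only within a transfection. Signs of RNA makeup moved with the immunoprecipitation. Probe sets for 18S ribosomal RNA read 9.05, 8.08 and 8.80 on the AGO2 arrays and 3.77, 3.57 and 3.87 on the total arrays. The poly(A) control RNAs read 5.82, 6.05 and 6.56 against 4.09, 4.11 and 4.29. For each of these the exact two-sided permutation p was 0.1, the smallest that 3 against 3 arrays can give. The 3′ minus 5′ signal of GAPDH was 0.769 ± 0.15 in AGO2-bound and 0.778 ± 0.04 in total RNA (SD, n = 3 each, exact permutation p = 1), and that of ACTB 2.68 ± 0.34 and 2.24 ± 0.21 (exact permutation p = 0.3). The part of ribosomal RNA, control RNA and RNA integrity in the differences between genes was not tested.

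AGO2-bound RNA differed from total RNA in most of the transcripts measured. Of 6782 genes, 2352 were higher (34.7%) and 2526 lower (37.2%) in AGO2-bound RNA by limma's moderated test at a Benjamini-Hochberg adjusted p under 0.05. The larger differences lay mainly on the bound side. At 2-fold or more 1345 genes were higher (19.8%) and 1181 lower (17.4%), and at 4-fold or more 492 were higher (7.25%) and 171 lower (2.52%). All 3 AGO2 arrays lay above all 3 total arrays for 2443 genes (36%) and below them for 2625 (38.7%). The median difference over all genes was −0.03.

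**Figure D1:**
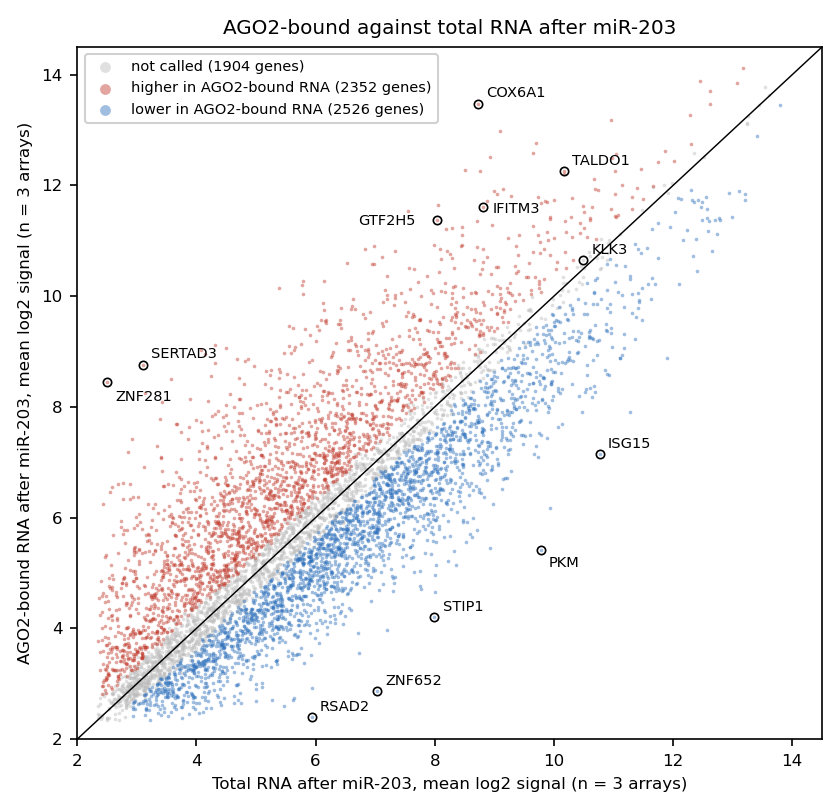
Mean log2 signal of AGO2-bound RNA (vertical, n = 3 arrays) against total RNA (horizontal, n = 3 arrays) after miR-203, 1 point per gene, coloured by the limma call. The 2352 higher genes spread farther from the line of equality than the 2526 lower ones, and ZNF281 and COX6A1 stand far above it, PKM and RSAD2 far below.

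Calls were spread over the range of expression. Of the 1696 genes with the lowest mean level 27.1% were higher and 27.6% lower, and of the 1696 with the highest 37.3% were higher and 45% lower. Each array received the same amount of RNA and was scaled to the others, so every difference is relative to the rest of the RNA on the array.

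The widest rises included transcripts that lay near the floor in total RNA. ZNF281, a zinc finger transcription factor tied to stemness and epithelial plasticity and described as a miR-203 target, read 8.20, 8.44 and 8.72 on the AGO2 arrays and 2.44, 2.45 and 2.60 on the total arrays. The total values lie just above the floor, so the difference of 5.96 ± 0.21 (SE, limma adjusted p = 3.1e-17) was the widest in the fit. SERTAD3, a transcriptional coactivator, read 8.75, 8.71 and 8.84 against 3.14, 2.97 and 3.18, a difference of 5.67 ± 0.15. NME6, of the nucleoside diphosphate kinase family, read 8.26, 8.41 and 8.11 against 3.10, 3.16 and 3.13, a difference of 5.13 ± 0.14. No arrays overlap in any of these 3 genes. Where the total values lie next to the floor, as for ZNF281, the fold may be understated and its rank is not exact.

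DUSP7, a phosphatase that switches off ERK, read 8.63, 8.40 and 8.47 in AGO2-bound and 3.36, 3.46 and 3.91 in total RNA, a difference of 4.93 ± 0.19. PCTP, which carries phosphatidylcholine, read 9.09, 9.11 and 9.16 against 4.07, 4.46 and 4.39 (4.81 ± 0.14). PLAGL2, a zinc finger transcription factor, read 7.90, 8.17 and 8.21 against 3.51, 3.31 and 3.45 (4.67 ± 0.16). In each of these genes the lowest AGO2 array lies far above the highest total array.

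The remaining leading genes include CHCHD3 and COX6A1. CHCHD3, a subunit of the complex that shapes the cristae of mitochondria, read 8.97, 8.89 and 9.01 in AGO2-bound and 3.91, 4.18 and 4.35 in total RNA (4.81 ± 0.16). COX6A1, a subunit of cytochrome c oxidase, read 13.51, 13.54 and 13.39 against 8.34, 9.15 and 8.69 (4.75 ± 0.14). CTH, which makes cysteine from cystathionine, read 9.03, 9.19 and 8.96 against 3.90, 4.62 and 4.95 (4.57 ± 0.17). The total arrays of COX6A1 and CTH scatter more than their AGO2 arrays. The other 3 of the 12 leading genes were FAM222B (4.96), TMEM177 (4.76), which acts in cytochrome c oxidase assembly, and TTC39A (4.51).

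The deepest fall was in a glycolytic gene. PKM, which encodes pyruvate kinase, the last enzyme of glycolysis, read 5.33, 5.64 and 5.28 in AGO2-bound RNA and 9.86, 9.79 and 9.69 in total RNA, a difference of −4.36 ± 0.19 (limma adjusted p = 8.1e-16). ZNF652, a zinc finger repressor, read 3.13, 2.52 and 2.95 against 6.90, 6.93 and 7.25 (−4.16 ± 0.15). STIP1, the cochaperone that joins HSP70 to HSP90, read 4.20, 4.10 and 4.30 against 8.15, 7.99 and 7.83 (−3.79 ± 0.18). No AGO2 array came near a total array for any of these.

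YWHAE, a 14-3-3 adaptor protein, read 7.86, 8.0 and 7.86 in AGO2-bound RNA and 11.42, 11.02 and 11.38 in total RNA (−3.37 ± 0.15). DDC, aromatic amino acid decarboxylase, read 5.55, 5.07 and 5.74 against 8.85, 9.02 and 8.93 (−3.48 ± 0.18). RXYLT1, which adds xylose to dystroglycan, read 4.85, 4.50 and 4.62 against 8.08, 7.95 and 8.0 (−3.35 ± 0.14). KLHDC3 (−3.22) and CENPU (−3.21), a kinetochore protein, were more scattered: CENPU read 5.98, 4.64 and 4.82 in AGO2-bound RNA and 7.92, 8.65 and 8.50 in total RNA. The remaining 4 of the 12, IFIT1, ISG15, RSAD2 and IFIH1, belong to the interferon response and are described with it.

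**Figure D2:**
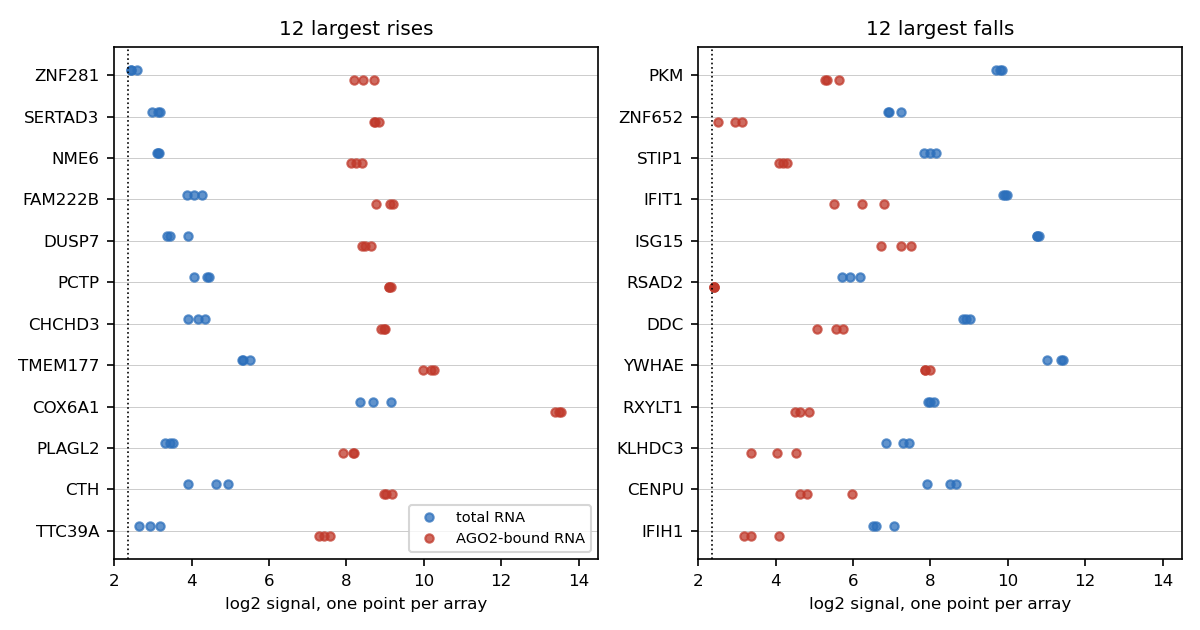
Log2 signal of the 12 genes with the largest rise (left) and fall (right) of AGO2-bound against total RNA after miR-203, 1 point per array, with the floor as a dotted line. AGO2 and total arrays are apart for each gene. ZNF281 in total RNA and RSAD2 in AGO2-bound RNA lie next to the floor.

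A few transcripts were at the floor in one kind of RNA, and their difference is a lower bound. MARCHF3, an E3 ubiquitin ligase of membranes, lay within 0.05 of the floor on each total array and read 4.53, 4.51 and 4.59 on the AGO2 arrays, at least 4.5-fold higher. ATF6B, of the endoplasmic reticulum stress sensors, read 3.71, 4.05 and 3.58 and was at least 2.7-fold higher than its total level at the floor. LRRC37A3 was at the floor in AGO2-bound RNA and read 3.11, 3.49 and 3.09 in total RNA, at least 1.83-fold lower. Of 8 genes at the floor in total RNA only, 2 were called, and of 8 at the floor in AGO2-bound RNA only, 1 was.

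Genes described in the literature as miR-203 targets were more often higher than lower in AGO2-bound RNA. Of 35 such genes 21 could be tested, of which 13 were higher (61.9%, beside 34.7% of all genes), 4 lower (19%, beside 37.2%) and 4 not called, with a median difference of 0.51 against −0.03 over all genes. The list was written from general knowledge of published targets, with no database behind it. By AGO2 array its median stood 0.42 to 0.61 above the mean of the total arrays. With no miR-203 plasmid the list's median difference was 0.44 after scramble, 0.001 after miR-130a and 0.37 after miR-205.

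ZNF281 led the list. SNAI2, the zinc finger repressor Slug of epithelial to mesenchymal transition, read 6.42, 6.48 and 6.51 in AGO2-bound and 2.39, 2.77 and 2.50 in total RNA (3.92 ± 0.18). E2F3, a transcription factor of S phase entry, read 8.17, 7.86 and 8.40 against 4.73, 4.70 and 4.70 (3.43 ± 0.15). JUN, a subunit of AP-1, read 9.26, 9.50 and 9.80 against 6.29, 6.13 and 6.09 (3.35 ± 0.20). All of these regulate transcription, as does GATA6, whose difference was 2.48.

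LASP1, an actin-binding protein of cell edges, read 7.86, 7.87 and 8.16 in AGO2-bound and 5.86, 6.04 and 5.73 in total RNA (2.09 ± 0.12, limma adjusted p = 1.1e-13). Smaller rises were found for VEGFA (0.82), ADAM9 (0.82), KIF5C (0.59), SMAD1 (0.59), TBK1 (0.51), ABL1 (0.46) and SRC (0.43). VEGFA has 4 probe sets, 2 of which were lower in AGO2-bound RNA (−0.47 and −0.32), so its direction depends on the probe set (limma adjusted p = 0.97 for their mean). RAN (−1.62), the GTPase of nuclear transport, ATM (−1.31), SMAD4 (−1.18) and BIRC5 (−0.72), the apoptosis inhibitor survivin, were lower. The 3 AGO2 values of BIRC5, 6.10, 4.98 and 4.81, overlapped its total values of 5.72, 6.30 and 6.04. Leaving out 1 array at a time ended 4 of these calls. KIF5C went to 0.42 (limma adjusted p = 0.068) without total replicate 3, and SMAD1 to 0.50 (0.078), 0.56 (0.054) and 0.44 (0.11) without AGO2 replicate 2, total replicate 2 and total replicate 3. SRC went to 0.36 (0.11), 0.45 (0.054), 0.41 (0.073) and 0.32 (0.14) without AGO2 replicates 1 and 2 and total replicates 2 and 3. BIRC5 went to −0.57 (0.13), −0.48 (0.18), −0.58 (0.12) and −0.71 (0.062) without AGO2 replicates 2 and 3 and total replicates 2 and 3. In some of these the difference barely moved and only the call was lost, as for SRC without AGO2 replicate 2. The mean of all probe sets also ended the calls of SMAD1 (0.28, limma adjusted p = 0.057) and BIRC5 (−0.36, limma adjusted p = 0.1). With no filter on signal SMAD1, BIRC5 and SRC were not called (limma adjusted p = 0.064, 0.1 and 0.075), nor was SRC with arrays centred on their median (0.081). BIRC5 was not called in a fit of the miR-203 arrays alone (0.077).

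Targets described for let-7 and the miR-17 family, microRNAs the cells may hold themselves, were counted in the same way, and the lists were not tested against each other. Of 19 tested let-7 targets 14 were higher (73.7%) and 4 lower (21.1%), with a median difference of 1.23. E2F6, a repressor of the E2F family, read 8.83, 8.74 and 9.01 in AGO2-bound and 4.89, 4.98 and 4.71 in total RNA (4.0 ± 0.15). Other leading let-7 targets were ARID3B (3.21), PBX3 (2.95), both transcription factors, and CDC34 (2.06), a ubiquitin-conjugating enzyme. Of 16 tested targets of the miR-17 family 12 were higher (75%) and 2 lower (12.5%), with a median of 0.85. TXNIP, which binds thioredoxin, read 10.72, 10.37 and 11.05 against 6.95, 7.27 and 7.12 (3.60 ± 0.17). WEE1 (2.32), the kinase that holds CDK1 inactive, and RB1 (2.25), the retinoblastoma protein, were higher as well. E2F3, SMAD4 and VEGFA stand on both the miR-203 and the miR-17 list and CCND1 on both others, so the lists are not separate sets. Without AGO2 replicate 1, or without total replicate 3, 1 miR-17 target rather than 2 was lower.

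Immediate early genes, whose short-lived transcripts appear within minutes of a stimulus, had the highest median of the lists, 1.47. Of 22 tested, 18 were higher and 3 lower. ZFP36, which binds AU-rich elements and hastens decay, read 7.57, 8.17 and 7.58 in AGO2-bound and 3.33, 3.37 and 3.44 in total RNA (4.39 ± 0.20). KLF6, a tumour suppressor in prostate, read 5.83, 5.98 and 5.82 against 3.17, 3.02 and 2.81 (2.87 ± 0.18). GADD45B, a stress sensor, read 5.80, 6.99 and 6.34 against 2.93, 2.79 and 3.10 (3.43 ± 0.21). Each AGO2 array showed the shift, with medians 1.26, 1.74 and 1.78 above the mean of the total arrays.

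**Figure D3:**
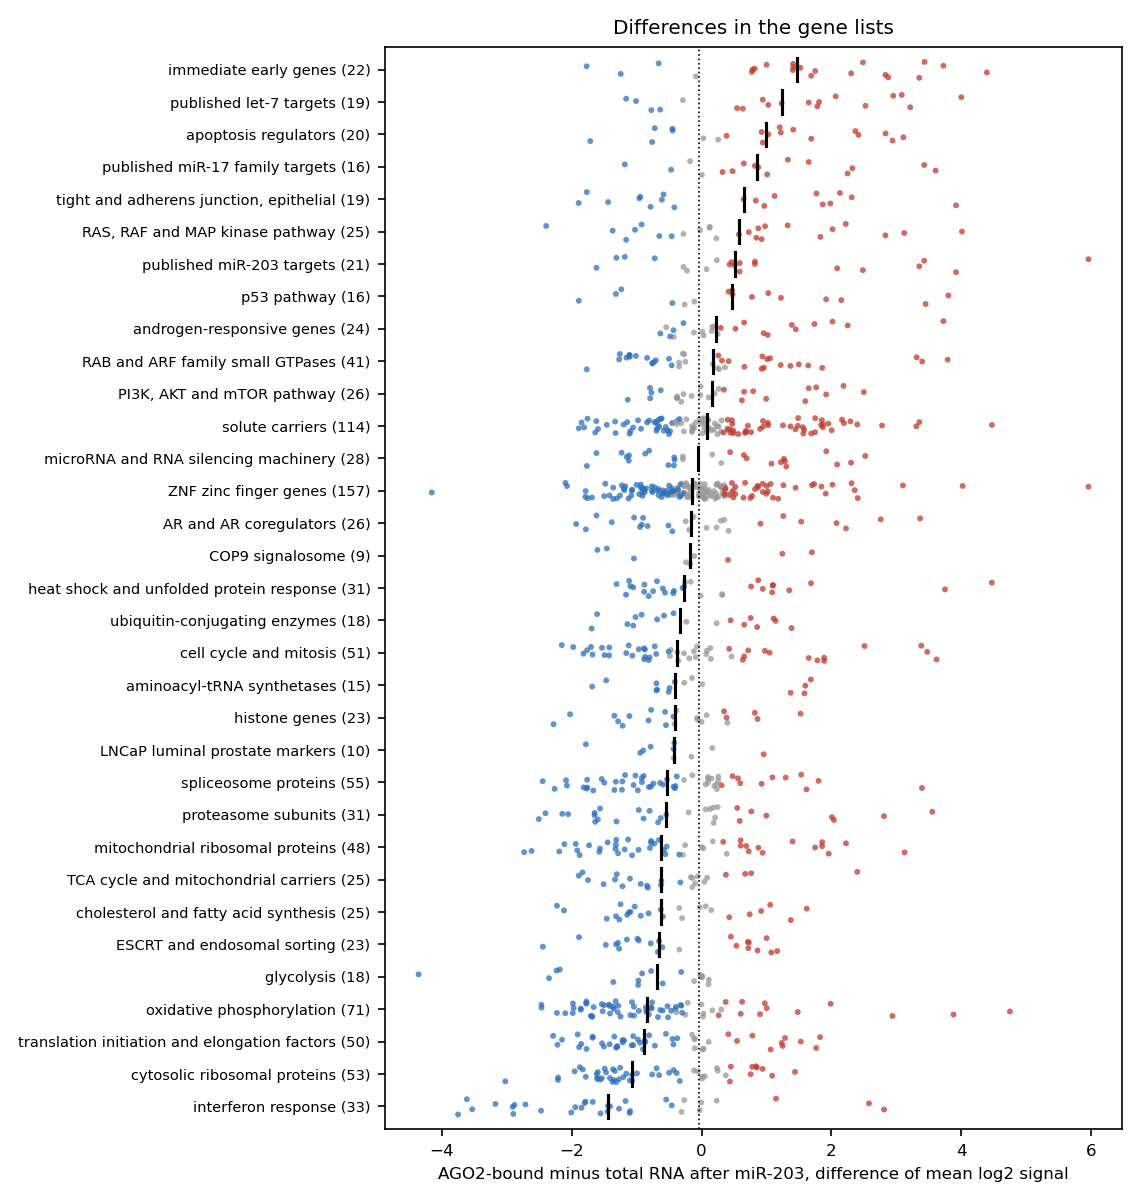
Difference of AGO2-bound minus total RNA after miR-203 (log2) for the members of each gene list with at least 9 tested members, 1 point per gene, red for higher, blue for lower and grey for not called. Black bars are list medians, the dotted line is the median of all genes (−0.03) and numbers in parentheses count the members tested. Immediate early genes and let-7 targets lie mostly to the right, and interferon, ribosomal protein and translation factor genes mostly to the left.

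The machinery that processes microRNAs and carries out silencing was split. Of 28 tested genes 12 were higher and 12 lower, with a median of −0.06. CNOT6, a catalytic subunit of the CCR4-NOT deadenylase, read 8.56, 8.53 and 8.81 in AGO2-bound and 6.11, 6.11 and 6.13 in total RNA (2.52 ± 0.13). TARBP2, the partner of Dicer that binds double-stranded RNA, read 7.41, 7.28 and 6.88 against 4.92, 4.96 and 4.79 (2.30 ± 0.20). CNOT3, another subunit of CCR4-NOT, went the other way, with 2.96, 3.40 and 3.09 against 4.86, 5.00 and 4.89 (−1.77 ± 0.16). FXR1, an RNA-binding protein of the fragile X family, was higher by 2.09 on its brightest probe set and lower by 0.90 on another, and the mean of its probe sets was not called (limma adjusted p = 0.091). Transcripts of partners in the same deadenylase thus lay on opposite sides.

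Transcripts of the protein synthesis machinery were mostly lower in AGO2-bound RNA. Of 53 tested cytosolic ribosomal protein genes 36 were lower and 9 higher, with a median of −1.07. RPS3, of the small subunit, read 9.07, 8.63 and 8.95 in AGO2-bound and 12.06, 11.72 and 11.94 in total RNA (−3.02 ± 0.18). RPS9 read 8.96, 8.79 and 9.05 against 11.19, 11.22 and 11.04 (−2.21 ± 0.12), and RPS4X was lower by 1.96. Many ribosomal protein genes have processed pseudogenes with near-identical sequence, and their probe sets can read both. These are messenger RNAs, which went down while the 18S ribosomal RNA signal above went up.

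Translation initiation and elongation factors, a list made by symbol pattern and so holding a few regulators of those factors, had 33 lower and 10 higher of 50, with a median of −0.89. EEF1D, which recharges elongation factor 1 alpha with GTP, read 8.67, 8.33 and 8.80 in AGO2-bound and 10.93, 10.87 and 10.87 in total RNA (−2.29 ± 0.15). EIF3H (−2.22), EIF3K (−1.89) and EEF1A2 (−2.15) were lower too. Of 15 aminoacyl-tRNA synthetases 8 were lower and 4 higher, and the highest 3 were GARS1 (1.68), HARS1 (1.60) and AARS1 (1.58), against VARS1 at −1.69. Synthetases thus lay on both sides, with a median of −0.41.

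Genes of the respiratory chain and ATP synthase were lower as a group, with some of the widest rises among them. Of 71 tested, 51 were lower and 12 higher, with a median of −0.84. NDUFA6, of complex I, read 7.52, 7.42 and 7.56 in AGO2-bound and 9.65, 9.60 and 9.56 in total RNA (−2.10 ± 0.11). UQCR10, of complex III, read 13.01, 13.11 and 12.81 against 9.10, 9.21 and 8.98 (3.88 ± 0.14), COX6A1 was described above, and COX7A2L, which joins respiratory complexes, was higher by 1.99. Over the list the differences ran from −2.47 to 4.75, so subunits of the same chain lay at both ends of the range.

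Mitochondrial ribosomal proteins had 28 lower and 14 higher of 48, with a median of −0.62. MRPS33 read 6.22, 6.17 and 6.32 in AGO2-bound and 8.99, 8.98 and 8.93 in total RNA (−2.73 ± 0.11). MRPL13 (−2.19) and MRPL58 (−2.11) were lower, while MRPL22 read 9.73, 9.64 and 9.11 against 6.20, 6.36 and 6.55 (3.13 ± 0.19). In the TCA cycle and among mitochondrial carriers 14 of 25 were lower and 4 higher, among them SUCLA2 (−1.84), IDH3G (−1.75) and VDAC2 (−1.51) on the lower side and SLC25A13 (2.40), the aspartate-glutamate carrier, on the higher.

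Glycolysis was the list in which no member was higher. Of 18 tested genes 11 were lower and 7 not called, with a median of −0.69. Beside PKM, ENO1 read 8.77, 8.83 and 8.12 in AGO2-bound and 11.05, 10.91 and 10.81 in total RNA (−2.35 ± 0.18). LDHB (−2.24), which interconverts lactate and pyruvate, and TPI1 (−2.19) were lower as well. GAPDH, which is not among the called members, read 12.59, 12.65 and 12.31 in AGO2-bound and 12.62, 12.49 and 12.43 in total RNA, a difference of 0.00 ± 0.14. Enzymes of one pathway thus gave different values.

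Splicing, protein turnover and lipid synthesis leaned the same way with exceptions. Of 55 spliceosome proteins 32 were lower and 11 higher, with a median of −0.53. SNRPD2 (−2.27) and SNRPB (−2.09), proteins of the Sm ring, and LSM1 (−1.67), an Sm-like protein of decapping, were lower. SNRNP40, of the U5 particle, read 7.64, 7.74 and 7.38 in AGO2-bound and 4.48, 4.02 and 4.08 in total RNA (3.39 ± 0.14).

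Of 31 proteasome subunits 16 were lower and 8 higher, with a median of −0.54. PSMD5, a chaperone of proteasome assembly, read 6.14, 6.49 and 6.35 in AGO2-bound and 2.93, 2.81 and 2.58 in total RNA (3.55 ± 0.18). PSMB6, a catalytic subunit, read 11.96, 12.08 and 11.51 against 9.25, 9.03 and 8.85 (2.81 ± 0.16). PSMD12 was lower by 2.41, and PSMD10 higher by 2.01. Other subunits of each kind went both ways: the core subunit PSMB4 (2.04) was higher and PSMB3 (−2.15) and PSMA3 (−2.51) lower, and the assembly chaperone PSMD9 (−2.06) was lower. These last 4 were named after their values were seen.

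Cholesterol and fatty acid synthesis had 14 lower and 6 higher of 25, with a median of −0.63. INSIG2 (−2.23), which retains the sterol sensor in the endoplasmic reticulum, FASN (−2.12), fatty acid synthase, and SC5D (−1.27) were lower, and SQLE (1.62), squalene epoxidase, higher. ESCRT and endosomal sorting had 13 lower and 9 higher of 23, led by SNX3 (−2.45), CHMP2A (−1.89) and VPS28 (−1.48), with VPS37B higher by 1.16. Of 18 ubiquitin-conjugating enzymes 9 were lower and 7 higher, among them UBE2A (−1.70), UBE2V2 (−1.61), UBE2K (−1.05) and UBE2O (1.38). In the COP9 signalosome 3 of 9 were lower, GPS1 (−1.46), COPS5 (−1.61) and COPS8 (−1.04), and 3 higher, with COPS7B at 1.70.

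Transcripts induced by interferon were lower in AGO2-bound RNA more than those of any other list, by median. Of 33 tested, 25 were lower and 3 higher, with a median of −1.45. ISG15, a ubiquitin-like modifier, read 7.23, 7.50 and 6.72 in AGO2-bound and 10.75, 10.79 and 10.76 in total RNA (−3.62 ± 0.18). IFIT1, which binds RNA lacking a methylated cap, read 6.23, 6.80 and 5.51 against 9.89, 9.93 and 9.99 (−3.75 ± 0.24). IFIH1, the RNA sensor MDA5, read 3.35, 4.10 and 3.19 against 6.53, 6.59 and 7.05 (−3.18 ± 0.22). Total RNA was steady over its 3 arrays for ISG15 and IFIT1, and the spread lay on the AGO2 side.

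OAS1, which makes the messenger of RNase L, read 2.70, 2.88 and 2.53 in AGO2-bound and 5.61, 5.62 and 5.62 in total RNA (−2.91 ± 0.15). RSAD2, the antiviral enzyme viperin, read 2.40 on each AGO2 array, a value 0.05 above the floor, and 5.92, 6.17 and 5.71 in total RNA. Its difference of −3.54 ± 0.13 is best read as a lower bound. For both genes the AGO2 arrays lie close to the floor and the total arrays well above it.

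IFITM3, a membrane protein that blocks viral entry, went the other way with 11.53, 12.07 and 11.23 in AGO2-bound and 8.89, 8.78 and 8.74 in total RNA (2.81 ± 0.15). The other two higher members, named after their values were seen, were IFITM2 (2.58) and IRF9 (1.15). IFITM2 and IFITM3 are close paralogs, and their probe sets may read both. The arrays hold pooled RNA of many cells, so a smaller bound share in some cells and in all cells cannot be told apart.

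**Figure D4:**
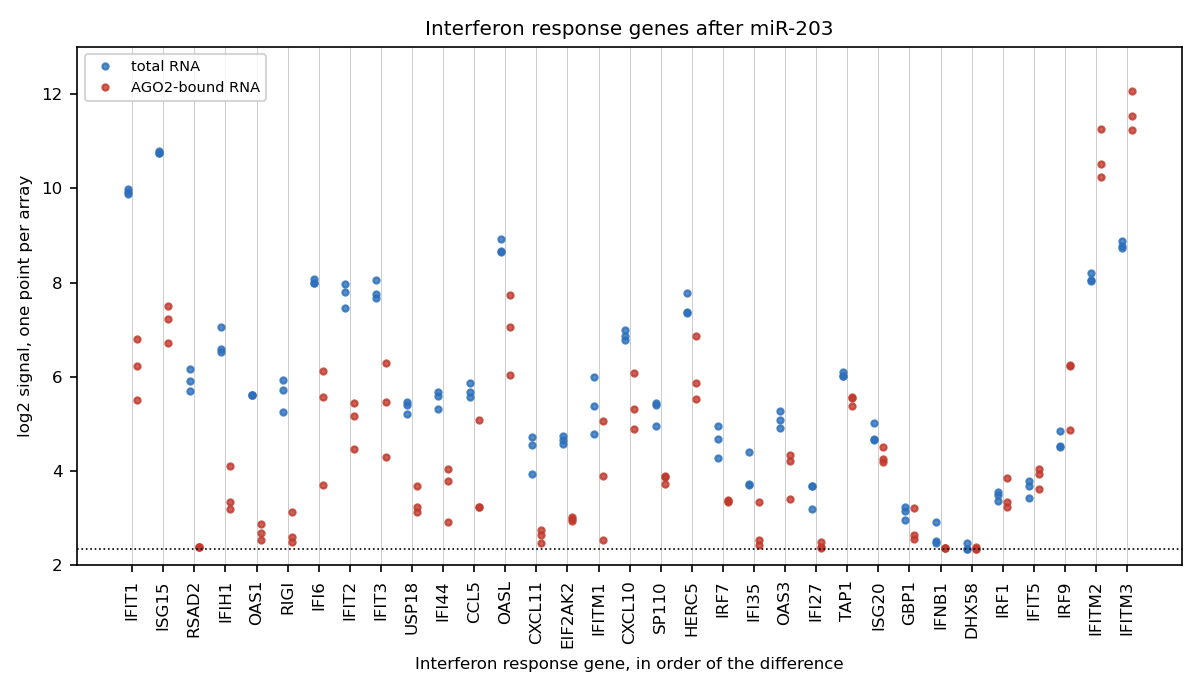
Log2 signal of the 33 tested interferon response genes after miR-203, 1 point per array, ordered by the difference, with the floor as a dotted line. Total arrays (blue) lie above AGO2 arrays (red) from IFIT1 to ISG20, and only IRF9, IFITM2 and IFITM3 were called higher in AGO2-bound RNA.

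Genes of androgen signalling, which drives LNCaP cells, were mixed. Of 26 tested genes of the androgen receptor and its coregulators 7 were higher and 11 lower, with a median of −0.16. PIAS4, a SUMO ligase, read 6.43, 6.33 and 6.38 in AGO2-bound and 2.93, 2.94 and 3.17 in total RNA (3.37 ± 0.13). GATA2, a pioneer factor of androgen receptor sites, read 9.79, 10.01 and 9.88 against 7.12, 7.19 and 7.10 (2.76 ± 0.12). FOXA1, the other pioneer factor of prostate, read 10.22, 10.20 and 10.31 against 8.12, 8.21 and 8.17 (2.08 ± 0.11). For both pioneer factors the 3 arrays of each kind lie close together. DAXX (−1.93), a corepressor and histone chaperone, and HOXB13 (−1.78), a prostate homeobox factor, were lower.

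Of 24 tested androgen-responsive genes 11 were higher and 4 lower, with a median of 0.21. SGK1, a kinase close to AKT and also on the immediate early list, read 6.36, 6.23 and 7.23 in AGO2-bound and 2.80, 2.98 and 2.87 in total RNA (3.72 ± 0.23). ELL2 (2.25), an elongation factor, HPGD (2.02), which inactivates prostaglandins, and MPHOSPH9 (1.39) were higher. KLK3, which encodes prostate-specific antigen, read 11.00, 10.39 and 10.58 against 10.35, 10.72 and 10.40, and its difference of 0.16 ± 0.14 was not called (limma adjusted p = 0.31). Without total replicate 2, 2 rather than 4 of the androgen-responsive genes were lower.

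Kinase signalling genes were counted in 2 lists, beside 34.7% higher and 37.2% lower over all genes. In the RAS, RAF and MAP kinase pathway 13 of 25 were higher (52%) and 7 lower (28%), with a median of 0.57. DUSP10, a phosphatase of p38 and JNK, read 7.57, 7.76 and 7.74 in AGO2-bound and 3.59, 3.93 and 3.52 in total RNA (4.01 ± 0.17). SPRED2, a brake on RAF activation, read 6.37, 6.65 and 6.68 against 3.49, 3.28 and 3.57 (3.12 ± 0.17). MKNK2, the kinase of the cap-binding protein, read 13.23, 12.95 and 13.35 against 11.00, 10.91 and 10.96 (2.22 ± 0.12). DUSP10 and SPRED2 both damp the pathway, as does DUSP7 above. The adaptor SHC1 was higher by 1.83 on one probe set and lower by 1.25 on the other.

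In the PI3K, AKT and mTOR pathway 11 of 26 were higher (42.3%) and 6 lower (23.1%), with a median of 0.15. IRS1, the insulin receptor substrate, read 4.20, 5.03 and 4.95 in AGO2-bound and 2.47, 2.51 and 2.65 in total RNA (2.18 ± 0.16). SESN1 (1.92) and DDIT4 (1.65), both inhibitors of mTORC1, and RPS6KB1 (1.60), the S6 kinase that mTORC1 activates, were higher. Other parts of mTORC1 control went the other way: DEPTOR, also an inhibitor, was lower (−0.79), as was the subunit MLST8 (−0.77), both named after their values were seen.

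Of 20 tested apoptosis regulators 13 were higher (65%) and 5 lower (25%), with a median of 0.98. TNFRSF10B, a death receptor for TRAIL, read 10.50, 10.28 and 10.77 in AGO2-bound and 7.51, 7.74 and 7.48 in total RNA (2.94 ± 0.14). BIK, a BH3-only killer, read 9.66, 9.91 and 9.74 against 6.65, 6.62 and 6.72 (3.11 ± 0.14). CASP2 (2.83) and BAK1 (2.42), which also promote death, were higher too. Of 16 tested p53 pathway genes 10 were higher and 4 lower, with PPM1D (3.80), the phosphatase that turns p53 signalling off, PLK3 (3.45) and PHLDA3 (2.15) higher and CCNG1 (−1.89) lower.

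Cell cycle and mitosis genes had 23 lower and 14 higher of 51, with a median of −0.37. CCNE1, cyclin E1, read 8.11, 7.48 and 7.87 in AGO2-bound and 4.39, 4.53 and 4.39 in total RNA (3.38 ± 0.18). CCNA2, cyclin A2, read 9.17, 7.95 and 8.15 against 4.57, 5.17 and 4.67 (3.62 ± 0.35). CCND1 (1.65) and KIF20A (2.51) were higher as well. Among the 23 lower members were CDKN3 (−2.15), BUB1B (−1.98), DLGAP5 (−1.82) and MCM7 (−1.70), named after their values were seen. Replicate 1 stood apart in this list: its AGO2 median was 0.01 above the mean of the total arrays, against −0.62 and −0.57 for the other two, and the total array numbered 1 lay 0.23 below that mean. Here 15 of the 51 genes had all AGO2 arrays below all total arrays, fewer than the 23 called lower. The shares of all genes were 38.7% with arrays so placed and 37.2% called lower.

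The list of tight and adherens junctions and epithelial identity also holds SNAI2, described above. All 19 tested members were called, 10 higher (52.6%) and 9 lower (47.4%), beside 34.7% and 37.2% of all genes, with a median of 0.65. CTNNB1, beta-catenin, read 10.93, 11.47 and 11.44 in AGO2-bound and 8.72, 9.15 and 9.03 in total RNA (2.31 ± 0.16). EPCAM (−1.90), an epithelial adhesion molecule, and CLDN7 (−1.44), a claudin, were lower. SNAI2 (3.92), a repressor rather than a junction gene, had the highest difference of the list. Heat shock and unfolded protein response genes had 16 lower and 10 higher of 31, with a median of −0.27. CHAC1, which degrades glutathione, read 8.64, 8.84 and 8.88 against 4.63, 4.25 and 4.06 (4.47 ± 0.22). DNAJB9 (3.75) and DNAJB1 (1.68), cochaperones, were higher and ATF4 (−1.31), the transcription factor of the integrated stress response, lower.

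Large gene families had both directions, beside 34.7% higher and 37.2% lower of all genes. Of 157 ZNF zinc finger genes 39 were higher (24.8%) and 60 lower (38.2%), with a median of −0.16, and the family held both the widest rise, ZNF281, and the second deepest fall, ZNF652. ZNF532 (4.02) and ZNF200 (3.10) were higher. Of 114 solute carriers 45 were higher (39.5%) and 36 lower (31.6%), led by SLC50A1 (4.47), a sugar transporter, SLC7A1 (3.35), which imports arginine and lysine, SLC25A44 (3.31) and SLC39A6 (2.78), a zinc importer.

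Of 41 RAB and ARF small GTPases 17 were higher (41.5%) and 15 lower (36.6%). RAB28 read 6.90, 6.92 and 6.89 in AGO2-bound and 3.23, 3.14 and 2.98 in total RNA (3.79 ± 0.13). RAB8A (3.40) and RAB25 (3.31), which act in epithelial membrane traffic, were higher and ARF3 (−1.77) lower. Histone genes had 11 lower and 5 higher of 23, among them H2AC25 (−2.28), H2AC6 (−2.03), H1-2 (−1.34) and H2BC5 (−1.29). Without AGO2 replicate 1, AGO2 replicate 3 or total replicate 2, 3 rather than 5 were higher. Most histone genes are near-identical copies, and probe sets may read several. Of 3 tested long noncoding RNAs DLEU1 was lower (−1.88), and LINC00339 (1.01) and TUG1 (0.47) were higher.

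The cells carried their label. Of 10 luminal prostate markers on the arrays none was at the floor on all 6 arrays, and their summed linear signal was 3900 to 4610 in AGO2-bound and 5060 to 5560 in total RNA. In these, 6 were lower and 1 higher, with HOXB13 described above, KRT18 (−0.95) and KRT8 (−0.79), keratins of luminal cells, lower and TMPRSS2 (0.96), an androgen-regulated protease, higher. Basal markers summed to 36.7 to 37.9 and 36.7 to 37.0, with KRT5, KRT15, DSG3, NGFR and S100A2 at the floor, 5 of 7. Blood, immune and endothelial markers summed to 71.6 to 72.6 and 71.7 to 72.2, with 10 of 14 at the floor, PTPRC, CD3E, CD14, MS4A1 and PECAM1 among them. Fibroblast and muscle markers summed to 98.5 to 102 and 85.7 to 89.6, with 9 of 15 at the floor, COL1A2, DCN, LUM and PDGFRB among them, and ACTA2, smooth muscle actin, was higher in AGO2-bound RNA by 1.09. ACTB, cytoplasmic actin, was higher by 0.98 ± 0.11.

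The differences after miR-203 were set beside those of the other transfections. Across 6782 genes the difference of AGO2-bound and total RNA after miR-203 correlated at 0.679 with that after scramble, 0.628 with miR-130a and 0.592 with miR-205. These comparisons share no arrays, but genes are not independent replicates, and all 4 share the antibody and the probes. Of the 2352 genes higher after miR-203, 1567 were also higher after scramble, 66.6% of these and 65.9% of scramble's 2378 (35.1% of genes). Of the 2526 lower ones, 1748 were also lower after scramble, 69.2% of these and 68.1% of scramble's 2565 (37.8%). ZNF281 differed by 6.86 after scramble, 4.63 after miR-130a and 5.28 after miR-205, and PKM by −4.82, −4.90 and −3.52. After scramble 314 of the 2352 were lower and 214 of the 2526 higher. After miR-130a 1423 of the 2352 were also higher (60.5%) and 344 lower, and 1723 of the 2526 also lower (68.2%) and 266 higher. After miR-205 the counts were 1518 (64.5%) and 343, and 1612 (63.8%) and 358. The widest rise and the deepest fall after miR-203, those of ZNF281 and PKM, thus recurred with no miR-203 plasmid. Not all leading genes did so, as COX6A1 and CHCHD3 show below.

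The difference itself was tested against the other transfections. Against scramble alone it was larger after miR-203 for 1500 genes (22.1%) and smaller for 1829 (27%). Against the mean of scramble, miR-130a and miR-205 it was larger for 1595 (23.5%) and smaller for 2222 (32.8%). Among these, 1057 genes (15.6%) were also higher in AGO2-bound RNA after miR-203 and 1158 (17.1%) also lower. For 271 of the 1057 the difference lay below 0 in all 3 other transfections, and for 103 of the 1158 it lay above 0 in all 3. Each test compares differences taken within a transfection, and both tests rest on the same miR-203 arrays.

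GTF2H5, the smallest core subunit of the repair and transcription factor TFIIH, stood farthest apart. It read 11.34, 11.69 and 11.08 in AGO2-bound and 7.97, 8.14 and 8.01 in total RNA after miR-203. Its difference was 3.33 here and −2.02, −2.83 and −2.95 after scramble, miR-130a and miR-205, 5.93 ± 0.19 above their mean (limma adjusted p = 1.2e-16). It thus changed side, from depleted to enriched, with total levels between 8.04 and 8.49 in all 4 transfections.

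TALDO1, transaldolase of the pentose phosphate pathway, did the same. It read 12.12, 12.51 and 12.15 in AGO2-bound and 10.20, 10.21 and 10.10 in total RNA after miR-203, with differences of −2.11, −1.88 and −2.19 elsewhere (4.15 ± 0.15 above their mean). SIGIRR, a receptor that restrains interleukin-1 signalling, read 7.43, 7.87 and 7.25 against 5.41, 5.42 and 5.37, with −2.06, −1.75 and −2.24 elsewhere (4.13 ± 0.19). ETHE1, a mitochondrial sulfur dioxygenase, read 8.76, 8.94 and 7.96 against 4.20, 4.0 and 4.51, with −0.76, −0.99 and −1.07 elsewhere (5.26 ± 0.23). PEX16, which acts in building peroxisomes, read 8.67, 8.97 and 8.36 against 5.29, 5.26 and 5.18, with −0.88, −0.77 and −0.28 elsewhere (4.07 ± 0.18). All of these had a difference below 0 in each of the 3 other transfections and above 2 after miR-203.

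The remaining leading genes differed in their total levels as well. COX6A1 had a difference of 0.51, 1.67 and −0.88 after scramble, miR-130a and miR-205, 4.32 ± 0.16 below that after miR-203. Its mean total level was 8.73 after miR-203 and 11.13, 10.84 and 11.16 elsewhere, while its AGO2 level was 13.48 against 11.63, 12.51 and 10.28. SLC50A1 had a mean total level of 5.79 against 7.22, 6.76 and 7.30 and an AGO2 level of 10.27 against 7.55, 7.34 and 6.98 (4.28 ± 0.17). CHCHD3 had a total level of 4.15 against 5.80, 5.33 and 5.60 and an AGO2 level of 8.96 against 5.38, 7.54 and 5.70 (4.18 ± 0.18). For these 3 genes total RNA was lowest and AGO2-bound RNA highest after miR-203. The levels of different transfections come from separate normalizations and were not tested against each other here.

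**Figure D5:**
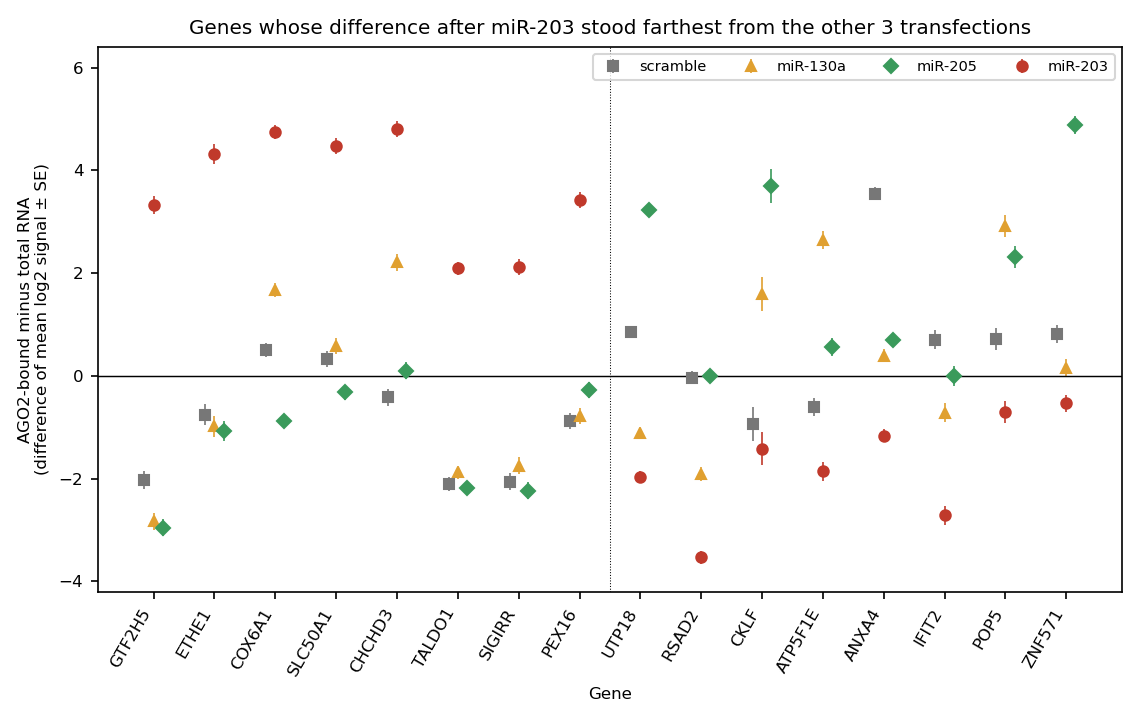
Difference of AGO2-bound minus total RNA (log2, ± SE from the limma fit, 3 arrays of each kind) in each of the 4 transfections for the 8 genes farthest above (left of the dotted line) and the 8 farthest below (right) the mean of the other 3 transfections. GTF2H5, TALDO1, SIGIRR, ETHE1 and PEX16 lie above 0 after miR-203 alone.

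Among the published miR-203 targets 5 of 21 (23.8%) had a larger difference after miR-203 than the mean of the other transfections and 3 (14.3%) a smaller one, beside 23.5% and 32.8% of all genes. LASP1 was the farthest above, by 2.47 ± 0.14 (limma adjusted p = 3e-13), with −0.89, −1.07 and 0.82 after scramble, miR-130a and miR-205. Its total level was 5.88 after miR-203 and 8.06, 8.30 and 7.65 elsewhere. KIF5C (1.13), SNAI2 (0.77), JUN (0.71) and ATM (0.60) were the other four, the last lower in AGO2-bound RNA in every transfection but less so after miR-203. E2F3 (−0.83), GATA6 (−1.02) and SMAD4 (−0.62) had the smaller differences. ZNF281 was not called (0.37 ± 0.24, limma adjusted p = 0.21).

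Genes farthest below the mean of the other transfections had varied differences there. UTP18, of ribosomal RNA processing, read 6.26, 6.15 and 6.32 in AGO2-bound and 8.20, 8.27 and 8.15 in total RNA, a difference of −1.96 beside 0.85, −1.11 and 3.23 (−2.95 ± 0.14 from their mean). ANXA4, an annexin, had −1.17 beside 3.54, 0.39 and 0.69 (−2.71 ± 0.15), and ATP5F1E, of ATP synthase, −1.86 beside −0.61, 2.65 and 0.56 (−2.73 ± 0.21). POP5, of RNase P, had −0.70 beside 0.72, 2.91 and 2.31 (−2.68 ± 0.25), and CKLF, a chemokine-like factor, −1.42 beside −0.94, 1.59 and 3.69 (−2.86 ± 0.37). ZNF571 had −0.54 beside 0.81, 0.15 and 4.88 (−2.49 ± 0.20), so that its place rests on the miR-205 arrays.

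The interferon genes RSAD2 (−2.89 ± 0.15) and IFIT2 (−2.71 ± 0.22) were also there, and their levels bear on the reading. Total RNA held RSAD2 at 5.94 after miR-203 and 8.44 after miR-130a, but at 2.39 after scramble and 2.36 after miR-205, next to the floor, where no fall could be seen. Over the 33 tested interferon genes the median total level was 5.53 after miR-203, 6.84 after miR-130a, 3.08 after scramble and 3.15 after miR-205. The list's median difference was −0.94 after miR-130a, −0.05 after scramble and −0.29 after miR-205, so a difference of the list from scramble cannot be told apart from the list's low level there.

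Lists were counted in the same comparison with the other 3 transfections. Over all genes 23.5% had a larger and 32.8% a smaller difference after miR-203, and no list was tested against them. Proteasome subunits had 15 of 31 larger (48.4%) and 10 smaller (32.3%), with median differences of −0.54 after miR-203 and −1.10, −0.67 and −0.96 after scramble, miR-130a and miR-205. Among junction genes 10 of 19 had a larger (52.6%) and 4 a smaller difference (21.1%), the medians being 0.65 and −0.58, −0.54 and 0.16. Of the ZNF genes 80 of 157 (51.0%) had a smaller and 13 (8.28%) a larger difference, and of the let-7 targets 10 of 19 (52.6%) a smaller and 1 a larger, with let-7 medians of 1.23 against 2.41, 1.61 and 2.42. Immediate early genes had 10 of 22 smaller (45.5%) and 3 larger (13.6%). Translation factors had 15 of 50 (30%) each way, with medians close to each other in all 4 transfections (−0.89 and −0.67, −0.79, −0.75).

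GAPDH varied between transfections too. Its difference of 0.00 after miR-203 stood beside −0.97, −1.47 and −2.21 after scramble, miR-130a and miR-205 (1.55 ± 0.16 above their mean, limma adjusted p = 1.9e-08). The 3′ minus 5′ signal of its AGO2-bound RNA, 0.769 after miR-203, was 1.40, 1.25 and 1.55 after those transfections, while total RNA stayed between 0.70 and 0.81. AGO2-bound RNA after miR-203 thus lay apart from the other AGO2-bound RNA in the GAPDH measure. In that of ACTB it did not, with 2.68 after miR-203 and 3.40, 2.55 and 3.45 after scramble, miR-130a and miR-205. These values come from separate normalizations, and the part of either measure in the differences between transfections was not tested.

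Where a gene had several probe sets, they mostly did not oppose each other. Of 2173 genes with several probe sets past the filter 454 had all of them higher, 583 all lower and 176 some higher and some lower. For the other 960 the calls were neither all one way nor opposed. Among the 181 genes chosen for naming 3 had another probe set called the other way, FXR1, SHC1 and VEGFA.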

How the data were processed

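The authors deposited log2 expression values per probe set of Affymetrix GeneChip arrays. Per the submitters' processing notes R 2.9.0, GCRMA and RMA were used, with no order given. Background correction and quantile scaling of this kind compress dim signals and make every level relative to its array. No step was repeated here.

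Probe sets with 1 gene symbol (19064 of 22277) gave 11963 genes, each read by the brightest of its probe sets, by the mean of 24 arrays. The 6782 genes with a mean of at least 2.85, the median of all probe sets, were tested. limma 3.58.1 in R 4.3.3 fitted 8 group means to all 24 arrays, and adjusted p-values are Benjamini-Hochberg over all 6782 genes. Simulated data for the miR-203 comparison had 200 of 6782 genes changed. There it recovered 61.2% of genes changed 1.5-fold, 94% at 2-fold and 100% at 4-fold, with 18 false calls. The real comparison called far more genes, and the adjusted p depends on that share, so these rates do not carry over to it.

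The members and gene lists were chosen with earlier results of these data known. Named genes are the 12 largest rises and falls with arrays apart, genes at the floor in 1 group, the 4 members of each list with the smallest p, called miR-203 targets, the 8 genes farthest each way from the other transfections, and KLK3, GAPDH and ACTB. Group sizes of 3 arrays limit the precision. Labels name biological replicates but no separate cultures, so p-values reflect only how far the arrays scatter, which may be technical. Alternatives varied the filter, probe set, scaling, prior, weights, arrays fitted, threshold and replicate block.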

Additional observations from a re-analysis of the deposited data

Results flagged for a closer look

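The difference of AGO2-bound and total RNA after miR-203 differed from that in other transfections by the interaction term of the limma fit. It was larger than after scramble for 1500 genes and smaller for 1829, and larger than the mean of the other 3 transfections for 1595 and smaller for 2222.

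By the same test the genes with the largest excess were GTF2H5 (5.93), ETHE1 (5.26), COX6A1 (4.32), SLC50A1 (4.28), CHCHD3 (4.18), TALDO1 (4.15), SIGIRR (4.13) and PEX16 (4.07). Those with the largest deficit were UTP18 (−2.95), RSAD2 (−2.89), CKLF (−2.86), ATP5F1E (−2.73), ANXA4 (−2.71), IFIT2 (−2.71), POP5 (−2.68) and ZNF571 (−2.49). Values are differences of log2 differences.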

How the results depend on the processing

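No called gene among those chosen for naming changed sign under the alternatives run. The balance of higher and lower calls turned with a minimum size. The counts over all genes moved by over 1.5 times only there. At a difference of at least 1, AGO2-bound RNA was higher for 1345 and lower for 1181 genes, the difference from scramble was larger for 833 and smaller for 849, and that from the mean of the other 3 transfections larger for 803 and smaller for 743. With limma's treat at 1.5-fold the counts were 1407 and 1287, 680 and 618, and 752 and 668. Higher genes, 48.2% of calls without a minimum size, were then 53.2% and 52.2%. Larger differences went from 45.1% to 49.5% and 52.4% against scramble, and from 41.8% to 51.9% and 53% against the other 3. Leaving out 1 array at a time gave 2233 to 2293 higher and 2397 to 2451 lower genes. For the difference from scramble it gave 1373 to 1496 and 1676 to 1831, and for that from the mean of the other transfections 1460 to 1630 and 2000 to 2262. Same-numbered AGO2 and total arrays after miR-203 deviated together at r of −0.14, −0.03 and 0.12. These values show no pairing by number, but with so few arrays they cannot exclude a shared culture. With the replicate number as a block on all 24 arrays 2337 genes were higher and 2512 lower, and on the 6 miR-203 arrays 2251 and 2408. Centring each array on its median moved the 48.2% to 43.4%. The counts within lists moved by over 1.5 times 47 and 38 times with the 2 minimum sizes. They moved 6 times on leaving out 1 array, as given above, and 3 times otherwise. Histone genes higher went from 5 to 3 with centring. With a mean level of at least 4, apoptosis regulators lower went from 5 to 3 and long noncoding RNAs higher from 2 to 1. The floor limits what dim transcripts can show.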
